A study of Homo sapiens with 4 samples.

Results

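MECOM on chromosome 3 encodes the zinc finger transcription factor EVI1, and its locus held the peaks with the highest summit pileup and the highest fold enrichment of both EVI1 chromatin immunoprecipitation (ChIP-seq) libraries described here, though some peaks elsewhere passed the lowest MECOM values. The MECOM peaks were all deposited peaks whose summit lay on chromosome 3 between 168.8 and 169.4 Mb of the human genome build hg19, the stretch that holds the gene. There were 12 such peaks of 347 in the library of wild-type EVI1 and 12 of 388 in the library of the splice form EVI1+18. The place was chosen by measured values, since its peaks had been seen to be strong and alike in both lists and 1 of their edges to differ. Heights, fold enrichment and edges within it are therefore a description, and no test was made of them.

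The cells were HEK293T, an established human embryonic kidney line, transfected transiently 1 day before harvest. Vectors of the pMIGII retroviral type carried no insert (Empty vector), a triple HA tag alone (3xHA), the tag on wild-type EVI1 (EVI1-WT) or the tag on EVI1+18, and each was represented by 1 library precipitated with an anti-HA antibody. The peak lists of the EVI1 vectors were used, while 3xHA and Empty vector were not analysed here. Filtering left 28191547 tags for EVI1-WT, 1.01 times the 27908825 left for EVI1+18. Both lists were called against the same input control of mock cells. With 1 library per group, nothing measured the spread between cultures, and the differences below have no replicate check.

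EVI1 reads DNA through a pair of zinc finger domains, one near its N terminus and one toward its C terminus, and it recruits repressors through the stretch between them. The gene has a distant upstream start, from which the longer MDS1-EVI1 protein with a PR domain is made, and start sites farther downstream, from which EVI1 is made. Rearrangements of chromosome 3 that place EVI1 under foreign enhancers drive an aggressive acute myeloid leukaemia. The study concerns EVI1 splicing in such leukaemia. The labels give EVI1+18 by name alone. From general knowledge of the study and from no file used here, the number stands for 18 extra nucleotides, the length of 6 codons, which an acceptor site upstream of the usual one adds to the message. MECOM lies on the minus strand, so the 5′ side of a feature is its high-coordinate side, and the peaks are numbered here from high to low coordinate, in the direction of transcription.

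The 12 peaks of each list lay within 43.2 kb, and every peak overlapped exactly 1 peak of the other list. Over the whole lists, an overlap was found for 62.2% of the peaks called with EVI1-WT and for 55.4% of those called with EVI1+18. At MECOM the peaks added up to 3253 bp with EVI1-WT, or 7.54% of the span, and to 3296 bp with EVI1+18, or 7.64%. The pattern was thus of 12 short blocks separated by long stretches with no called peak.

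**Figure D1:**
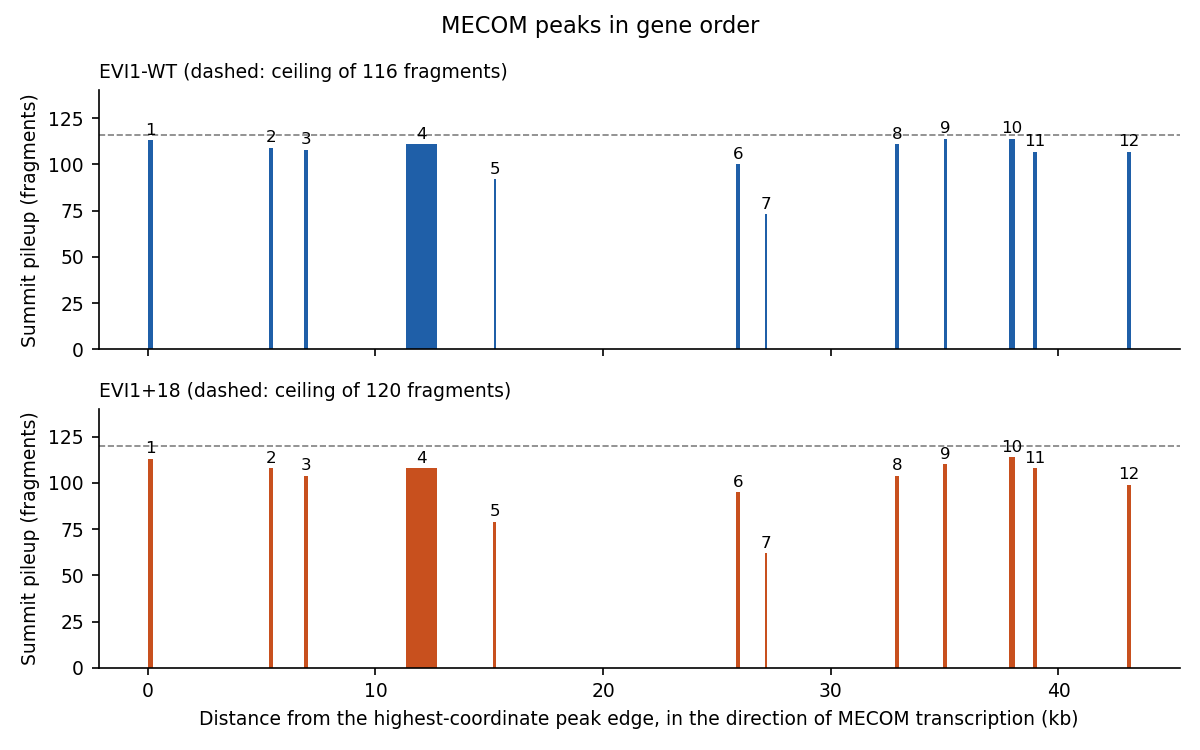
Summit pileup (fragments, y axis) of the 12 MECOM peaks in EVI1-WT (top) and EVI1+18 (bottom) against distance from the highest-coordinate peak edge in the direction of transcription (kb, x axis). Each bar is 1 peak drawn at its length, numbered in gene order, and the dashed lines mark the ceilings of 116 and 120 fragments. Peaks 5 and 7 are the lowest in both lists and peak 4 is the longest.

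The pileup is the number of sequenced fragments that cover a peak's summit. Since 1 tag per position and strand was kept, it cannot pass 2 times the fragment length that the peak caller used, which sets a ceiling of 116 fragments for the wild-type library and 120 for EVI1+18. At the 5′ end of the series, peak 1 ran from 168845622 to 168845858 in EVI1-WT and from 168845625 to 168845859 in EVI1+18, with a pileup of 113 in both. Peak 2 followed after a gap of 5099 bp, from 168840360 to 168840522 in EVI1-WT, with pileups of 109 in EVI1-WT and 108 in EVI1+18. Peak 3 lay between 168838837 and 168839004 in EVI1-WT, and its pileups were 108 there and 104 in EVI1+18. These first 3 blocks were 237, 163 and 168 bp long with the wild-type form, against 235, 163 and 170 bp with EVI1+18.

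Peak 4 stood apart in length. It ran from 168833165 to 168834531 in EVI1-WT and from 168833161 to 168834536 in EVI1+18, 1367 and 1376 bp. That was 5.51 and 5.38 times the next longest MECOM peak, and 42.0% and 41.7% of all the MECOM peak length. Its pileup was 111 in EVI1-WT and 108 in EVI1+18. Despite its length it was deposited as 1 unbroken peak in each list.

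Past peak 4 came the shortest blocks, peaks 5 and 7, with the longer peak 6 between them. Peak 5, from 168830569 to 168830674 in EVI1-WT, was 106 bp long with a pileup of 92 there, and 105 bp long with a pileup of 79 in EVI1+18. A gap of 10550 bp, the longest of the 11 gaps in both lists, separated it from peak 6, which with EVI1-WT ran from 168819840 to 168820018. Peak 6 had pileups of 100 in EVI1-WT and 95 in EVI1+18. Peak 7, from 168818668 to 168818757 in EVI1-WT, was the shortest block and the lowest, at 90 bp and 73 fragments with the wild-type form, against 92 bp and 62 fragments with EVI1+18.

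The remaining 5 peaks lay toward the 3′ end. Peak 8, from 168812852 to 168813042 in EVI1-WT, was 191 bp long in both lists, with pileups of 111 in EVI1-WT and 104 in EVI1+18. Peak 9, which carries the edge that differed, had pileups of 114 and 110. Peaks 10 and 11, from 168807783 to 168808030 and from 168806786 to 168806981 in EVI1-WT, were the closest neighbours, 801 bp apart there and 800 bp apart in EVI1+18. Their pileups were 114 in both lists at peak 10, and 107 in EVI1-WT and 108 in EVI1+18 at peak 11. Peak 12, the last, ran from 168802691 to 168802840 in EVI1-WT, with pileups of 107 and 99.

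Height followed length among the short blocks. The 2 peaks under 110 bp, numbers 5 and 7, had at most 92 fragments (EVI1-WT) and 79 (EVI1+18), while the 10 longer peaks had at least 100 and 95. A block of 90 bp holds 82 positions at which a tag of 50 bp can lie wholly inside it, both strands together, and one of 92 bp holds 86. These counts are a scale and not a limit, since tags may reach past a called edge. Some short peaks elsewhere had pileups above the count for their length. Peak 7 had 73 and 62 fragments, that is 89.0% and 72.1% of its counts. Peak 5 had 80.7% of its own count of 114 positions in EVI1-WT and 70.5% of 112 in EVI1+18. At the longer peaks the ceiling of the pileup was lower than this count. They reached 86.2% to 98.3% of the ceiling in EVI1-WT and 79.2% to 95% in EVI1+18.

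**Figure D2:**
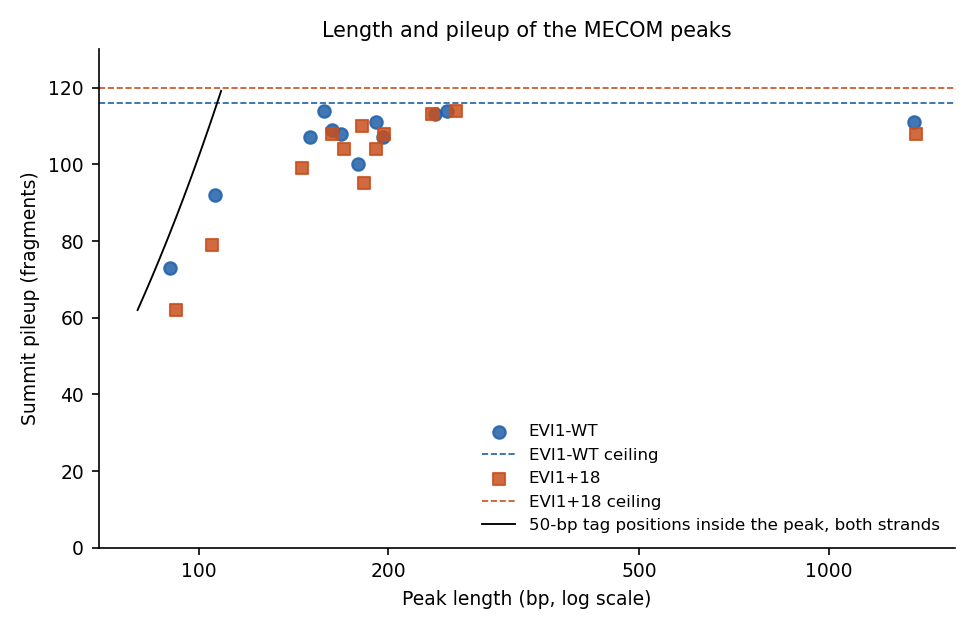
Summit pileup (fragments, y axis) against peak length (bp, log scale, x axis) of the 12 MECOM peaks of EVI1-WT (circles) and of EVI1+18 (squares). Dashed lines are the ceilings of 116 and 120 fragments and the black line is the number of positions for a 50 bp tag inside a peak of that length. The 2 peaks under 110 bp lie below the black line and below the other 10 peaks of their list.

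Set side by side, EVI1-WT had the higher pileup at 9 of the 12 MECOM pairs, an equal one at 2 and a lower one at 1. Over all 173 one-to-one pairs of the lists, 39.9% had the higher pileup in EVI1-WT. Per kept tag, the ratio of EVI1-WT to EVI1+18 was above 1 at 8 of the 12 MECOM pairs and at 68 of all 173. It had a median of 1.03 at MECOM, with a range from 0.98 at peak 11 to 1.17 at peak 7. The 161 pairs elsewhere had a median of 0.92. The largest ratios were at the short blocks, 1.17 at peak 7 (95% interval 0.82 to 1.66) and 1.15 at peak 5 (95% interval 0.84 to 1.58), where the pileup is farthest below the ceiling. These exact conditional binomial intervals cover counting error only. Such intervals included 1 at all 12 MECOM pairs and at 167 of all 173. Near the ceiling a pileup cannot show how much DNA was precipitated, so ratios near 1 at the 10 longer peaks do not show that the libraries were alike there.

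Fold enrichment sets the pileup against the local background that the caller took from the control. It ranged from 25.9 to 69.3 in EVI1-WT and from 24.8 to 67.1 in EVI1+18 at MECOM. Elsewhere 1 EVI1-WT peak and 2 EVI1+18 peaks reached the lowest MECOM value of their list. The highest of these were on chromosome 17, with a fold of 31.0 at 7955706 to 7956836 in EVI1-WT and 40.4 at 78903521 to 78904494 in EVI1+18.

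The background that the deposited pileup and fold imply was low at MECOM. With EVI1-WT it had a median of 0.967 fragments, with a range from 0.617 to 2.90, and a median of 0.957 in EVI1+18, with a range from 0.625 to 2.87. The genome-wide background was 0.606 and 0.620 fragments. Before scaling, the median at MECOM equals 1.0 fragment of the mock control, and the highest value, at peak 6, equals 3.0. By comparison, 9 EVI1-WT peaks elsewhere had a pileup at least as high as the lowest of MECOM, and their implied background was 5.80 to 51.3 fragments. Of these, 6 lay on chromosome 1 and 1 each on chromosomes 5, Y and the mitochondrial chromosome. EVI1+18 had 12 peaks elsewhere at least as high as its lowest MECOM peak. Of those, 8 were on the mitochondrial chromosome, 3 on chromosome 1 and 1 on chromosome 17. Only the chromosome 17 peak, at 78903521, had a background within the MECOM range, with 78 fragments over a background of 0.957.

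**Figure D3:**
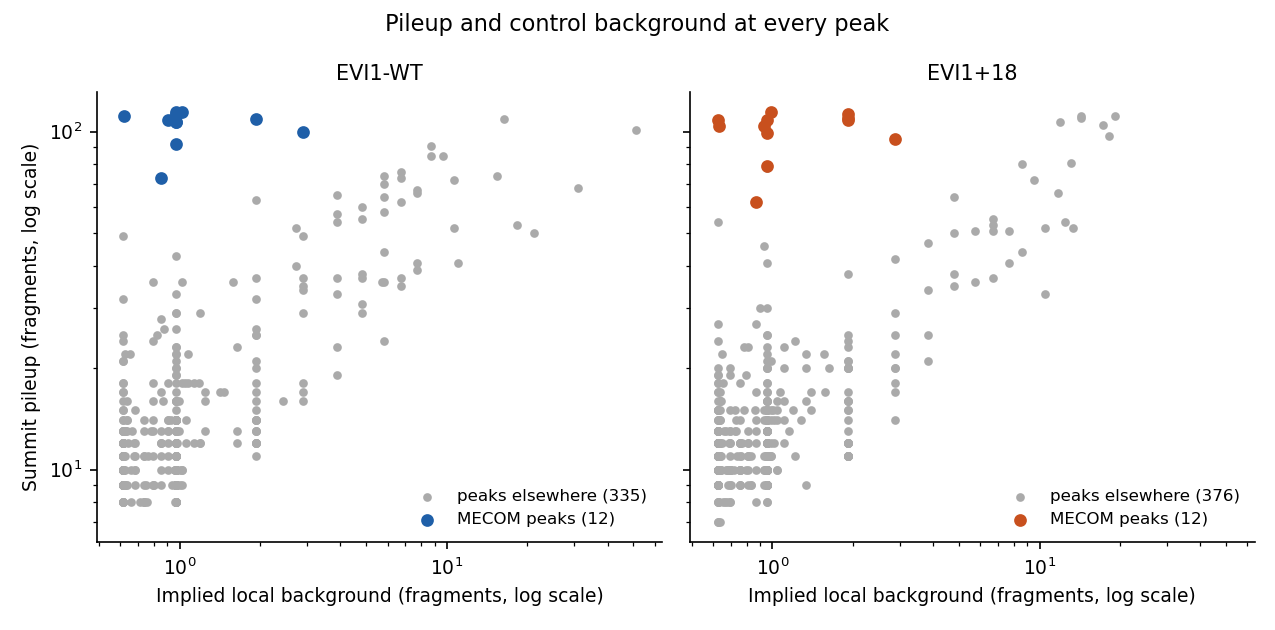
Summit pileup (fragments, log scale, y axis) against the local background implied by pileup and fold enrichment (fragments, log scale, x axis) for every peak of EVI1-WT (left) and EVI1+18 (right). MECOM peaks (coloured) combine 62 to 114 fragments with a background of at most 2.90, while most other peaks of like height (grey) have a background above that range.

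Differences in fold between the lists at MECOM lay more in this background, itself computed from pileup and fold, than in the pileup. At 5 pairs the implied background differed by more than 0.2 control fragments between the lists, and their fold ratios of EVI1-WT to EVI1+18 ran from 0.67 to 1.54. At the other 7 pairs the fold ratio stayed between 0.98 and 1.19. Peak 9 had the widest gap, with a fold of 58.5 in EVI1-WT and 38.1 in EVI1+18. Its pileups were 114 and 110, while the control behind them stood at 1.0 fragment for EVI1-WT and 2.0 for EVI1+18. The summits of peak 9 also lay 42 bp apart. Peak 2 went the other way, with folds of 37.5 and 55.7 over 2.0 and 1.0 control fragments and nearly equal pileups.

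Peak edges coincided closely, with 1 exception. Of the 24 MECOM edges, 23 differed by at most 5 bp between the lists. The larger edge difference of a pair had a median of 3 bp. The low-coordinate edges were shifted by -4 to 4 bp in EVI1+18, with a median of 0.5 bp, in no common direction. The summits inside these edges differed more, by a median of 20 bp and by up to 68 bp at peak 4.

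Peak 9 held the exception. It ran from 168810741 to 168810898 in EVI1-WT and from 168810737 to 168810918 in EVI1+18, so its high-coordinate edge lay 20 bp higher with EVI1+18. On the gene's strand this is the 5′ edge of the block. The peak measured 158 bp for the wild-type form against 182 bp for EVI1+18, a gain of 24 bp, of which 4 bp came from the other edge. The other 11 pairs changed in length by -4 to 9 bp.

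The high-coordinate edges of the other 11 pairs are given beside it as a description, since this edge was part of the choice of the place. They lay from 2 bp lower, a shift of -2, to 5 bp higher in EVI1+18, with a mean of 2.0 ± 2.05 bp (SD, n = 11 edges of the same 2 libraries) and a median of 2 bp. In EVI1+18, 9 of them were higher, 1 was equal and 1 was lower. Tags had been extended to 58 bp for EVI1-WT by the caller, against 60 bp for EVI1+18, a difference of 2 bp. An edge placed by a threshold on the pileup is not a splice site mapped to the base.

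**Figure D4:**
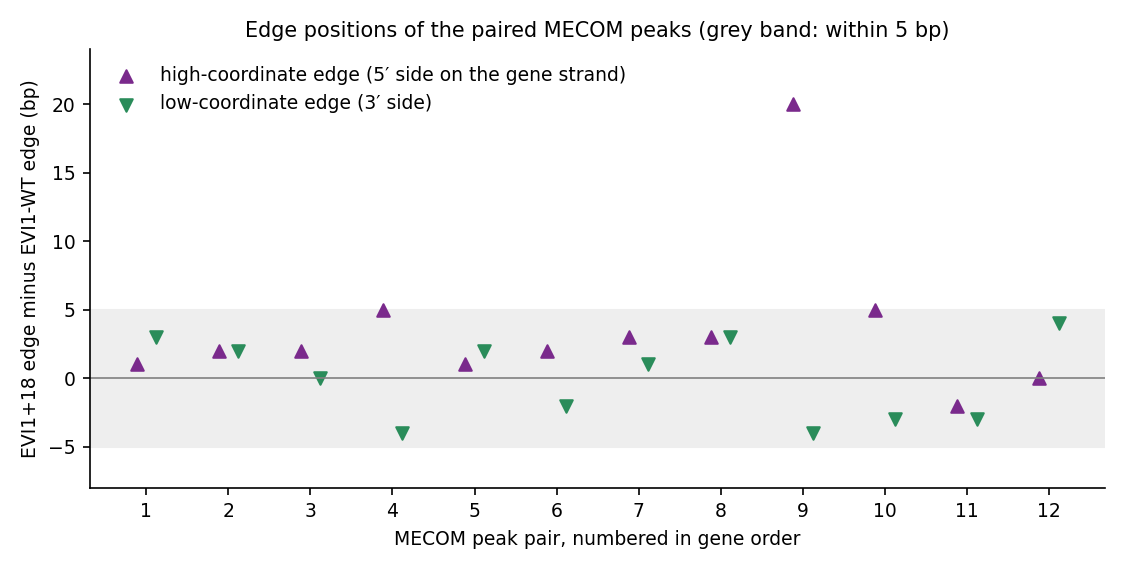
EVI1+18 edge position minus EVI1-WT edge position (bp, y axis) for the 12 MECOM peak pairs in gene order (x axis), with upward triangles for high-coordinate edges and downward triangles for low-coordinate edges. The grey band marks 5 bp to each side of 0. The high-coordinate edge of pair 9 lies at 20 bp and the other 23 edges lie within the band.

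In gene order, peak 9 follows 8 blocks that add up to 2501 bp for EVI1-WT, against 2515 bp for EVI1+18, 76.9% and 76.3% of the MECOM peak length of each list. The 3 blocks after it add up to 594 and 599 bp. Its place is thus toward the 3′ end of the covered sequence, which is a sum of peak lengths and not a map of the transcript.

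Edges matched less well over the lists as a whole. Of all 173 one-to-one pairs, 87.3% had an edge that differed by more than 5 bp, against 1 of 12 at MECOM. Elsewhere the larger edge difference had a median of 43 bp (interquartile range 18 to 95), and 11 of 161 pairs had both edges within 5 bp. The 3 pairs elsewhere whose pileups were both at least as high as the lowest MECOM peak of their list lay together on chromosome 1. They started between 564672 and 569274 in EVI1-WT, over implied backgrounds of 4.79 to 9.67 fragments. Both edges were within 5 bp at 2 of them and 1 differed by 95 bp, too few to say whether high peaks match better. Lengthening in EVI1+18 was frequent too, at 59.5% of all pairs and 7 of 12 at MECOM. A high-coordinate edge 18 to 22 bp higher in EVI1+18, with the low edge within 5 bp, was not confined to peak 9. It was seen at 4 of the 161 pairs elsewhere and at 1 of 12 at MECOM. The 4 pairs elsewhere were low peaks, with pileups of 9 to 14 in EVI1-WT and 9 to 19 in EVI1+18. At peak 9 the pileups were 114 and 110. A shift of that size thus occurred elsewhere too. The 3 high pairs elsewhere are too few to show how often such a shift occurs at the height of peak 9.

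**Figure D5:**
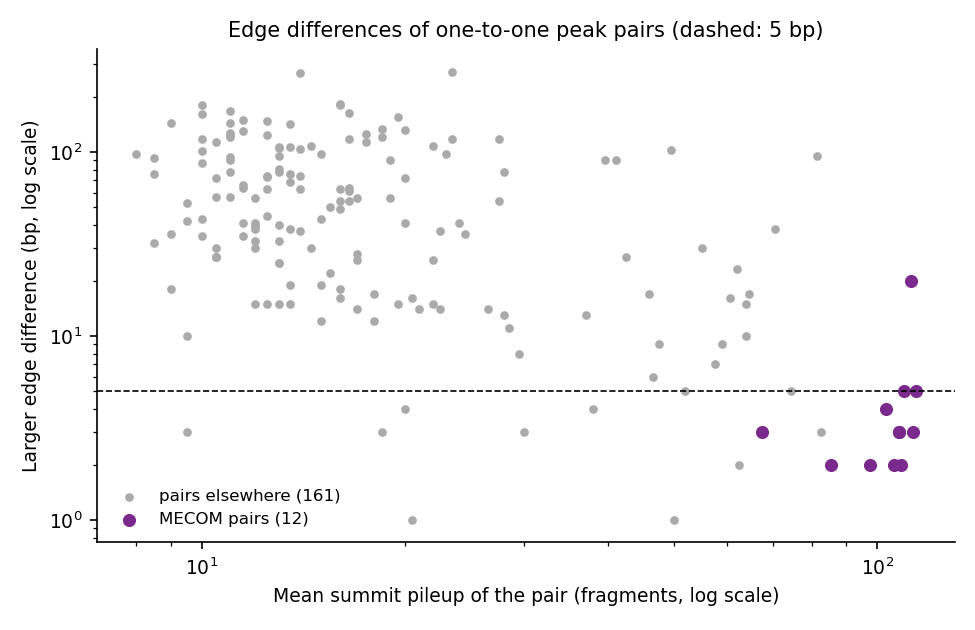
Larger edge difference between the lists (bp, log scale, y axis) against mean summit pileup (fragments, log scale, x axis) for 12 MECOM pairs (purple) and 161 one-to-one pairs elsewhere (grey). The dashed line marks 5 bp. Of the MECOM pairs 11 lie on or below the line and 1, peak 9, lies at 20 bp.

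The rest of the gene and of the chromosome carried little. From peak 1 to the upper limit of the window, 554.1 kb, neither list held a peak, and neither held one in the 2.7 kb below peak 12. Chromosome 3 had 8 further peaks in each list, with pileups of 9 to 32 in EVI1-WT and 10 to 25 in EVI1+18. The next peak upward lay 12.2 Mb away in both lists, at 181046895 in EVI1-WT with a pileup of 14 and at 181046898 in EVI1+18 with 13. Downward the next one was 72.5 Mb away in EVI1-WT, with a pileup of 32, and 65.2 Mb away in EVI1+18, with 11.

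An hg19 exon annotation was not used here, so peaks were not assigned to exon numbers, and exons without a peak were not listed. Lengths within the gene model of another build give a scale without positions. In RefSeq's GRCh38.p14 table MECOM is 580.2 kb long on the minus strand, with 3 start sites. They lie 63.0, 64.0 and 580.2 kb from its 3′ end. The 43.2 kb that the peaks spanned is 7.44% of that length, and shorter than the distance from either downstream start site to the 3′ end.

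The DNA of the transfected EVI1 vectors carries EVI1 coding sequence, while the input control is named for mock cells. The part of vector DNA in the MECOM signal was not tested, and it cannot be told apart here from binding of either protein to chromosomal MECOM. With 1 library per vector, a difference between vectors cannot be told apart from one between libraries. The control is an input library and not an anti-HA precipitation.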

How the data were processed

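ChIP-seq peak lists of EVI1-WT and EVI1+18, 1 library each, were used. Per the labels' protocols, chromatin cut with micrococcal nuclease was precipitated through the HA tag, and the eluted DNA was sheared. Per the file headers, MACS 2.0.10.20120913 called the peaks of each library from tags of 50 bp, with 1 tag kept per position and a q-value limit of 0.05. Positions are in hg19, the build that the submitters' processing notes name. The aligner's settings are not stated in the labels or headers. Pileup, as deposited, is a signal in fragments and was whole throughout. Fold enrichment, as deposited, is a ratio to local control background. Significance (p-value, q-value) was deposited as −log10. All are the authors' values for each peak.

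Peaks were paired when they overlapped by at least 1 bp and each had 1 partner. The implied background was (pileup + 1)/fold − 1. Poisson −log10 p-values recomputed from it differed from the deposited ones by at most 3.4e-05 and 3.5e-05. Division by 0.967 and 0.957, the ratios of kept ChIP to control tags, gave control fragments. Simulated peaks, well apart from each other, served only to check that the code for pairing and background ran as written. Pileup ratios were divided by the ratio of kept tags (intervals with SciPy 1.17.1). The members and lists were chosen with earlier results of these data known, and all MECOM peaks are given. Other peaks were named as the nearest on chromosome 3 or the highest. Python 3.11.15, pandas 2.3.3, numpy 2.4.6 and matplotlib 3.10.9 were used.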

Additional observations from a re-analysis of the deposited data

How the results depend on the processing

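Of 22 alternative values for the main results at MECOM, 21 stayed close to the reported value, within 1.5 times for counts and within the spread of the other edges or the counting interval for the rest. The alternatives were a reciprocal overlap of 50%, a −log10 q of at least 5, a window 1 Mb wider on each side, other edge tolerances, other scalings of the pileup, and 3 added after the data were seen. The first 3 of these could not move a value, so the tally does not measure stability. The lowest MECOM −log10 q was 107 in EVI1-WT and 85.4 in EVI1+18. The nearest other chromosome 3 peak lay 12.2 Mb away, and every MECOM pair overlapped by far more than 50%. The count of edges that differed moved from 1 to 12 of 24 when the tolerance was lowered to 2 bp, and was 1 at 10 bp. The shift of 20 bp at peak 9 became 18 bp after subtraction of the difference in fragment length. The low-coordinate edges had a median shift of 0.5 bp, and whether fragment length moved any edge was not tested. The median pileup ratio of 1.03 ranged up to 1.16, at the peaks under 110 bp. The planned count of exons with a peak was not run, since it needs an hg19 annotation. No paired analysis was possible because the groups hold a single library each, which also leaves no library to omit. Pileups near the ceiling limit every comparison of height.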
